A study of Mus musculus with 4 samples.

Results

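The genes described here are 45 contractile and actin cytoskeleton genes, read in mouse cells labelled mesangial. They include actins, transgelins and calponins, myosin subunits and their kinase, tropomyosins, troponin subunits and caldesmon, and cross-linkers of actin filaments. Further groups are LIM domain proteins, the transcription factor Srf with its cofactor Mkl1, and proteins that turn actin over. Each gene was read through the probe sets (groups of oligonucleotides that together measure 1 transcript) for which the platform annotation gives exactly 1 gene symbol, and where several existed, through the one with the highest mean over the 4 arrays. All 45 had such a probe set, out of 18193 genes that had one. A synonym was needed for 1 of them, since Mkl1 is annotated as Mrtfa. The 45 genes had 115 probe sets in all, and 16 genes had a single one.

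The series holds 2 arrays labelled TGFBeta1 and 2 labelled low glucose, all hybridised with total RNA of cells labelled mesangial. Mesangial cells are contractile cells akin to pericytes that support the capillaries of the kidney glomerulus. The comparison asks which of these genes differ in cells given TGF-beta1. The labels give no dose, time, medium or culture for any array, nor the glucose level of the TGF-beta1 arrays, so an effect of TGF-beta1 and one of glucose cannot be told apart. The labels do not say whether replicate arrays stem from different cultures. The p-values thus measure only how far these arrays, perhaps technical repeats, lie apart, and their small number limits the precision. In bulk RNA of this kind, fewer cells of a type and less RNA per cell cannot be told apart.

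Transforming growth factor beta 1 signals through receptor kinases to SMAD transcription factors, and it is also known to promote actin assembly. When monomeric actin is used up, the cofactor Mkl1 is freed to enter the nucleus, where it binds serum response factor (Srf) on CArG boxes in the promoters of many smooth muscle and cytoskeletal genes. Smooth muscle alpha-actin (Acta2), transgelin (Tagln) and calponin (Cnn1) are the classical products of this programme, and in mesangial cells their appearance marks an activated, myofibroblast-like state of the injured glomerulus.

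The arrays fell into pairs that crossed the groups, and this bears on every value below. TGF-beta1 replicate 2 and low glucose replicate 1, whose titles carry the same repeat tag, are called array pair 1, and TGF-beta1 replicate 1 and low glucose replicate 2 are called array pair 2. Over 18 spike-in probe sets, which measure RNA added at hybridisation, the mean absolute log2 difference was 0.054 within pair 1 and 0.089 within pair 2, against at least 0.97 between arrays of different pairs. The sources used here do not say what the pairs stand for. Among the 43 members tested, the difference between the pairs was larger in size than the difference between the groups in 29, with median sizes of 0.24 and 0.11 on the log2 scale. Each difference is therefore given from limma fits without and with the array pair as a block, as log2(intensity + pseudocount) after quantile normalisation, TGF-beta1 minus low glucose. The pair was chosen as a block with earlier results known.

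With the pair in the fit as a block, 14 of the 43 members tested were called higher in TGF-beta1 and 0 lower (limma, Benjamini-Hochberg adjusted p under 0.05 over all genes tested). At an unadjusted p under 0.05 these counts were 17 and 0, and the share of all genes at that level is not reported here. Over all 13565 genes tested, 18.4% were called, 7.88% higher and 10.6% lower. Without the block 0 members were called, and 0% of all genes (the smallest adjusted p in limma was 1.0), while 7 members and 270 genes had an unadjusted p under 0.05. In 10 members both TGF-beta1 arrays lay above both low glucose arrays in normalised value, against 9.81% of all genes, and in 2, Myl9 and Des, both lay below, against 11.1%. The absolute difference was at least 0.3 in 10 members, all above 0, against 3.1% of all genes with a difference of at least 0.3 above 0. The median difference of the 43 members was 0.10, with 0.14 within pair 1 and 0.076 within pair 2, and the median of all genes tested was -0.00014. With 2 arrays against 2, an exact permutation test of a single gene cannot give a p below 0.333.

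**Figure D1:**
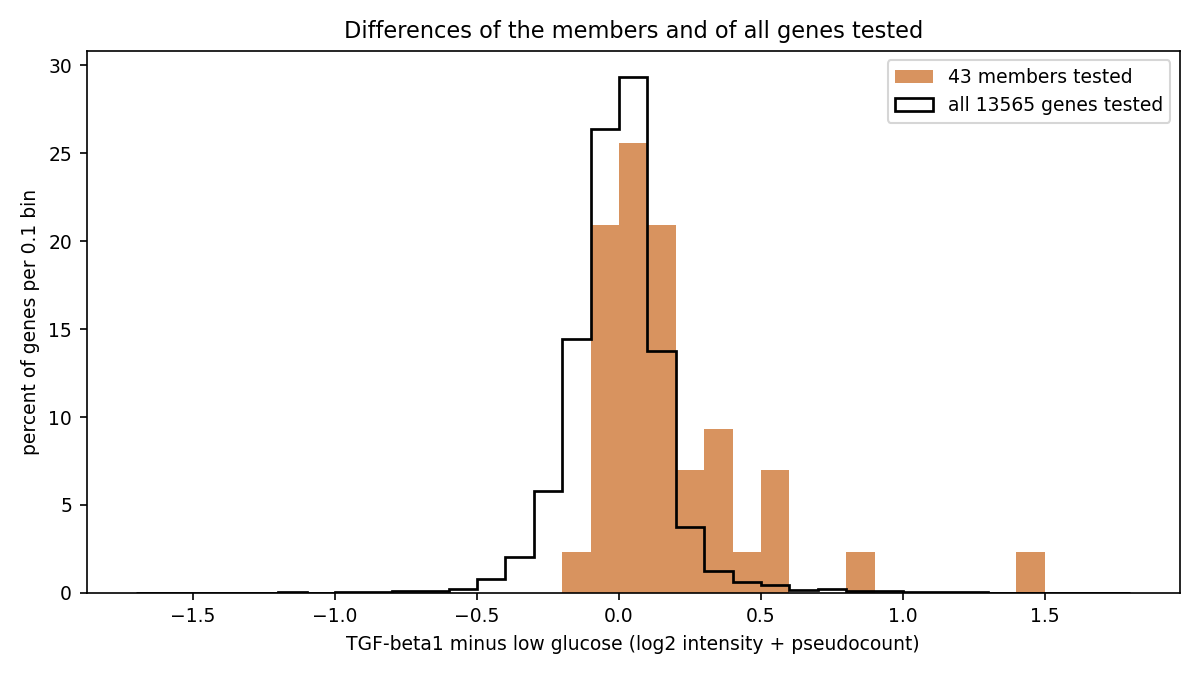
Distribution of the difference, TGF-beta1 minus low glucose (log2 of intensity + pseudocount), for the 43 members tested (filled) and all 13565 genes tested (outline), as percent of genes per bin of 0.1. The members have a median of 0.10 and reach 1.49 (Tnnt2), while the genes as a whole are centred near 0.

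The blocked calls rest on 1 residual degree of freedom and on a spread that limma estimated as equal for all genes of the same brightness. With the prior degrees of freedom estimated without the block in its place, 0 of the 14 calls remained, and 0% of all genes were called. At that setting 14 members had an unadjusted p under 0.05, a count given without its share over all genes. Without the block and with an infinite prior, 2 members were called, Tagln and Tnnt2, beside 142 of all 13565 genes (1.05%). The calls below are those of the blocked fit, and none was made without the block. Since the smallest adjusted p without the block was 1.0, the count of 0 there does not show that members did not differ.

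Sequence before the start of transcription was looked up for the members because Srf and its partners are known to act there. RefSeq (GRCm38.p6) held 250 bases upstream of a start for 40 of the 45 members, 11 of them with more than 1 start, and Actb, Actg2, Myh11, Tagln and Csrp2 had no entry in the table used. A CArG box, on either strand, lay in this window in 5 of the 40 members, or 12.5%, against 1.62% of 27025 genes. The 5 were Cnn2, Fhl1, Fhl2, Myl9 and Srf itself, of which only Fhl2 was called higher. The motif MCAT (CATTCC or its reverse complement GGAATG), bound by TEAD factors, lay in 13 of the 40 members, or 32.5%, against 14.4% of all genes. It lay in 5 of the 13 higher members with an entry (38.5%) and in 8 of the 27 other members (29.6%). The short SMAD element CAGAC (either strand, reverse complement GTCTG) lay in 19 of the 40 members, or 47.5%, against 45.8% of all genes. Genes with several starts have more windows to match in, and a match is a description of the sequence, not a site shown to be used.

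Printed here, 5′ to 3′ on the strand of the gene, are the windows of 3 members with CArG boxes (capitals), one called higher and the others not. For Fhl2 (chr1:43163962-43164211, minus strand) the box begins 31 bases before the start. For Srf (chr17:46556163-46556412, minus strand) the boxes begin 82 and 62 bases before it, and for Myl9 (chr2:156775214-156775463, plus strand) the box begins 161 bases before it.
Fhl2: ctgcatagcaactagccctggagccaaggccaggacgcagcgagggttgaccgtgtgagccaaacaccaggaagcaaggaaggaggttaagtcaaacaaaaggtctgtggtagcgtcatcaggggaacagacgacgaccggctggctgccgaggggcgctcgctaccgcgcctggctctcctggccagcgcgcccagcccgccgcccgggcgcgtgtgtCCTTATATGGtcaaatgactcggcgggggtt
Srf: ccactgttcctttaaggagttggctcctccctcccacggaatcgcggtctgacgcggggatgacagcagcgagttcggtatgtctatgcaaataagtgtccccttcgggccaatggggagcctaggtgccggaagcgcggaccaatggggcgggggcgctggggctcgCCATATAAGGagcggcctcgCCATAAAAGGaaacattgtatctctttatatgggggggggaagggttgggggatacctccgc
Myl9: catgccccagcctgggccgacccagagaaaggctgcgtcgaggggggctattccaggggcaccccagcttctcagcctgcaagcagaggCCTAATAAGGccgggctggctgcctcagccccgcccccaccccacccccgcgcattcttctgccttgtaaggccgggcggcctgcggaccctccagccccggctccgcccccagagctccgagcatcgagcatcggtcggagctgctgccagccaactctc
A further annotated start of Fhl2 (window chr1:43196762-43197011, minus strand) has a box of its own, 96 bases before it.

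The windows of 2 members called higher, Acta2 (chr19:34255374-34255623, minus strand) and Tnnt2 (chr1:135836084-135836333, plus strand), have no CArG box in the strict form searched but have an MCAT motif, in capitals, 146 and 27 bases before the start. The motif is absent before a further annotated start of Tnnt2 (window chr1:135836739-135836988, plus strand). Members not called have it too, among them Tagln2, Cald1, Mylk and Myh10.
Acta2: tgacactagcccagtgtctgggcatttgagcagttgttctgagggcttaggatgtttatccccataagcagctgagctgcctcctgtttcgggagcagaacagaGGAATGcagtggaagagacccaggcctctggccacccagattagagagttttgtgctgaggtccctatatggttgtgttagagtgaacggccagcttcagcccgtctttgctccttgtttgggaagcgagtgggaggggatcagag
Tnnt2: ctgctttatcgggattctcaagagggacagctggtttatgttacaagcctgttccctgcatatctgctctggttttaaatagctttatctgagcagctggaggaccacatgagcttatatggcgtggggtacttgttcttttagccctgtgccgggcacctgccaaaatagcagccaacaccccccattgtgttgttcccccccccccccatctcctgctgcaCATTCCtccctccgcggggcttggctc

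Of the actins, Acta2 was called higher, Actb was not past the threshold and Actg2 lay below the brightness filter. Acta2, the actin isoform of smooth muscle and the usual marker of activated mesangial cells, had intensities of 157 and 145 on TGF-beta1 replicates 1 and 2, against 109 and 109 on low glucose replicates 1 and 2. Both TGF-beta1 arrays lay above both low glucose arrays. The intensity ratio was 1.33 within pair 1 and 1.44 within pair 2. Its normalised log2 level was 7.61 ± 0.19 in TGF-beta1 and 7.30 ± 0.14 in low glucose (SD, n = 2 each), a difference of 0.32 (SE 0.066 with the block, limma adjusted p = 3.26e-05, and SE 0.18 without it). Without TGF-beta1 replicate 1 the difference was 0.18. The gene was not bright: its mean stood at percentile 61.9 of all probe sets.

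Actb, the cytoplasmic beta-actin present in every cell, had 8331 and 9214 in TGF-beta1, against 8707 and 7918 in low glucose. The groups overlapped, and the difference was 0.042 (limma adjusted p = 0.51 with the block). Actg2, the enteric smooth muscle gamma-actin, read 40.7 and 49.1 in TGF-beta1, against 42.0 and 45.5 in low glucose, at percentile 22.3 of brightness, and was not tested. Beta-actin also has control probe sets along its transcript, whose 3′ to 5′ ratio of intensity was 1.32 and 1.18 in TGF-beta1 and 1.18 and 1.51 in low glucose, with the higher value of each group in pair 2. The same ratio for the control probe sets of Gapdh, a glycolytic enzyme, was 0.948 and 1.003 in TGF-beta1 and 0.981 and 0.963 in low glucose, with the lower value of each group in pair 2.

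Tagln had the second largest difference of all members. It encodes transgelin (SM22 alpha), an actin-binding protein of smooth muscle, and read 489 and 405 in TGF-beta1, against 207 and 239 in low glucose. The groups were well apart, each TGF-beta1 array being about the same distance above the low glucose array of its own pair: the intensity ratio was 1.96 within pair 1 and 2.05 within pair 2. On the log2 scale the level was 8.94 ± 0.18 in TGF-beta1 and 8.06 ± 0.20 in low glucose (SD, n = 2 each). The difference of 0.88 had an SE of 0.071 with the block (limma adjusted p = 3.34e-32) and of 0.20 without it (unadjusted p = 0.0087 in limma, adjusted p = 1.0). It ranked 37th among the 13565 genes.

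The other transgelin and the calponins, which bind actin filaments and tune their contraction, were above 0 but none was past the threshold. Cnn1, the calponin of differentiated smooth muscle, read 134 and 183 in TGF-beta1, against 163 and 125 in low glucose. The groups overlapped, with the higher value of each in pair 1, and the difference was 0.091 (limma adjusted p = 0.36 with the block). Tagln2 (0.17, adjusted p = 0.051) and Cnn2 (0.20, adjusted p = 0.058), the forms found in many non-muscle cells, lay just outside the threshold in limma with the block. Cnn3, the acidic calponin, had a difference of 0.070. For Tagln2 the pairs differed by 0.72 on the log2 scale, with pair 1 the brighter. A further Tagln2 probe set above the filter gave a difference of 0.35 between the groups.

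The transcripts whose pattern over the 4 arrays lay nearest to that of Tagln, by Euclidean distance of normalised log2 values centred on each gene's mean, were Lif (distance 0.10), Dusp6 (0.11), Prrt4 (0.12), Pvr (0.12) and Dusp4 (0.12). Lif encodes a cytokine of the interleukin 6 family, and Dusp6 and Dusp4 encode phosphatases of MAP kinases. Their differences lay between 0.82 (Lif and Dusp6) and 0.99 (Dusp4). With 4 arrays this likeness is a description only.

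Of the 5 myosin genes tested, Myh9 was called higher and the other 4 had differences below 0. Myh9, the heavy chain of non-muscle myosin IIA, which pulls on stress fibres, read 2494 and 2318 in TGF-beta1, against 1999.9 and 2159.9 in low glucose. Both TGF-beta1 arrays were above both low glucose arrays, by a small margin, and the difference of 0.20 was nearly equal within the pairs (SE 0.069, limma adjusted p = 0.027 with the block). It was 0.11 with TGF-beta1 replicate 1 left out, and also with low glucose replicate 1 left out. The call was lost when arrays were centred on their medians, with a difference of 0.18 (limma adjusted p = 0.054), and when suffixed probe sets were left out, where another probe set gave 0.17 (adjusted p = 0.10).

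Myh11, the heavy chain of differentiated smooth muscle, read 81.4 and 123 in TGF-beta1, against 114 and 85.8 in low glucose. Its groups overlapped, with the higher value of each in pair 1, and the difference was -0.017. It was dim, at percentile 54.2 of brightness, so the small difference does not show that it was expressed and unchanged. The remaining differences were -0.023 for Mylk, the kinase that switches on smooth muscle contraction by phosphorylating the myosin light chain, -0.044 for Myh10, the heavy chain of non-muscle myosin IIB, and -0.074 for Myl9, the regulatory light chain itself. Myl9 was dim, at percentile 40.4 of brightness, close above the filter. It carries a CArG box in the window printed above, and its normalised values were lower on both TGF-beta1 arrays than on both low glucose arrays, though its limma adjusted p was 0.58 with the block.

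The regulators of the thin filament held the largest difference of all members, and 4 of the 7 tested were called higher, with all 7 differences above 0. Tnnt2 encodes cardiac troponin T, the subunit that ties the troponin complex of heart muscle to tropomyosin. It read 538 and 374 in TGF-beta1, against 99.2 and 168 in low glucose. The groups were far apart, with the higher value of each in pair 2, and the intensity ratio was 3.77 within pair 1 and 3.21 within pair 2. On the log2 scale the level was 8.95 ± 0.35 in TGF-beta1 and 7.46 ± 0.51 in low glucose (SD, n = 2 each). The difference of 1.49 was the 3rd largest of all 13565 genes (SE 0.067, limma adjusted p = 3.92e-104 with the block, and SE 0.33, adjusted p = 1.0 without it).

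Tnnt2 had 3 probe sets, and they did not read alike. A further one gave 1.49 as well, while the remaining one gave 0.035, its intensities being 81.9 and 113 in TGF-beta1 and 108 and 75.1 in low glucose. Both probe sets with the large difference carry a suffix of the platform, _a_at for the tested one and _x_at for the other. Such suffixes mark probes that may match several transcripts, whether of the same gene or of others. Leaving suffixed probe sets out ended the call (difference 0.035, adjusted p = 0.80 in limma with the block). Of 9 other marker genes of striated muscle, 4 were above the filter and 0 were called with the block (limma adjusted p from 0.87 to 0.97, and 0 with an unadjusted p under 0.05 without the block). Myod1, a master regulator of skeletal muscle, and Ttn, the giant spring protein of the sarcomere, had differences of 0.0073 and -0.020. They read 75.8 to 101 over all arrays. The Tnnt2 probe set with 0.035 read at a like level, so its small difference does not show a transcript that was expressed and unchanged. The lost call of Tnnt2 thus came with a switch to a dim probe set. The summed intensity of the 9 was 528 and 751 in TGF-beta1, against 715 and 537 in low glucose, following the pairs.

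Tpm1, a tropomyosin that lies along stress fibre actin, read 2124 and 2682 in TGF-beta1, against 1955 and 1492 in low glucose. All TGF-beta1 values were above all low glucose values, and the difference was 0.46 (SE 0.072, limma adjusted p = 6.55e-09 with the block), with 0.43 within pair 1 and 0.48 within pair 2. Without low glucose replicate 2 it was 0.30. Its 3 probe sets above the filter gave 0.30 to 0.46. Tpm4, a further non-muscle tropomyosin, read 1858 and 2148 in TGF-beta1, against 1716 and 1688 in low glucose. The groups did not overlap, and the difference was 0.21 (limma adjusted p = 0.028 with the block), but it was 0.31 within pair 1 and 0.11 within pair 2.

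Tnnc1, the calcium-binding troponin subunit of heart and slow muscle, was called higher although its groups overlapped. It read 362 and 688 in TGF-beta1, against 554 and 321 in low glucose. Pair 1 was brighter than pair 2 by 0.74 on the log2 scale, and the difference between the groups was 0.21 (limma adjusted p = 0.037 with the block). Leaving out 1 array turned it to -0.18 (without TGF-beta1 replicate 2) or -0.12 (without low glucose replicate 2), and raised it to 0.62 (without TGF-beta1 replicate 1) or 0.55 (without low glucose replicate 1). Median centring ended the call, with a difference of 0.20 (limma adjusted p = 0.062). Tpm2 (0.12), Tpm3 (0.095) and caldesmon, Cald1 (0.11), a protein that holds myosin off actin, were not past the threshold. Cald1 was above 0 within pair 1 (0.27) and below it within pair 2 (-0.059). The 5 probe sets of Tpm3 above the filter gave 0.093 to 0.34.

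**Figure D2:**
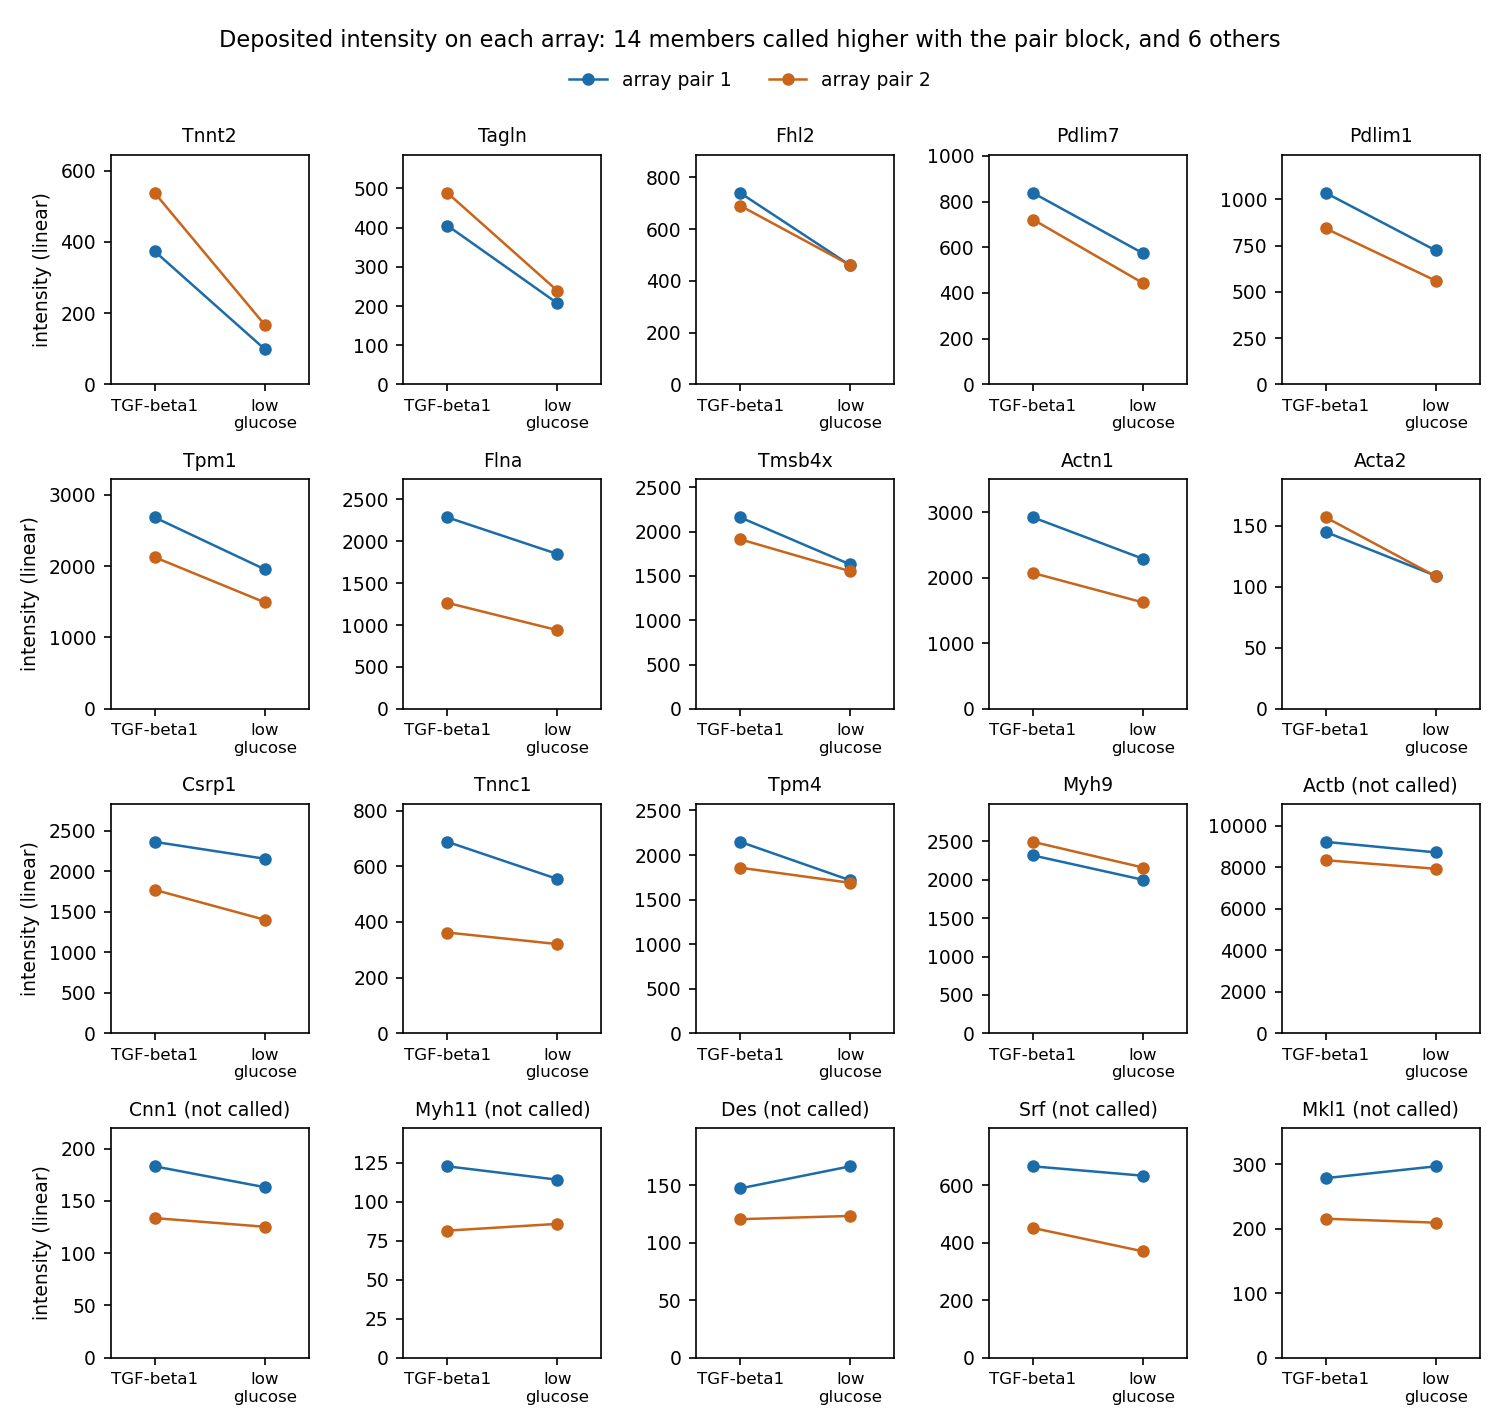
Deposited linear intensity of the 14 members called higher with the array pair as a block and of 6 other members, with TGF-beta1 left and low glucose right. Each line joins the arrays of 1 pair. In Tnnt2, Tagln, Fhl2, Pdlim7, Pdlim1, Tpm1, Tmsb4x, Acta2, Tpm4 and Myh9 both left points lie above both right points, and in Flna, Actn1, Csrp1 and Tnnc1 the groups overlap while both lines slope the same way.

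Of the 5 cross-linkers and scaffolds, 2 were called higher. Flna encodes filamin A, which joins actin filaments into networks and anchors them to integrins, and read 1265 and 2285 in TGF-beta1, against 1848 and 939 in low glucose. The groups overlapped widely, the arrays of pair 1 being the brighter ones by 0.83 on the log2 scale. The intensity ratio was 1.24 within pair 1 and 1.35 within pair 2, and the difference was 0.34 (SE 0.077, limma adjusted p = 0.000146 with the block, and SE 0.40 without it). Leaving out TGF-beta1 replicate 2 gave -0.041 and leaving out low glucose replicate 2 gave -0.10. It was 0.74 with TGF-beta1 replicate 1 left out and 0.78 with low glucose replicate 1 left out.

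Actn1, the alpha-actinin that bundles stress fibres, read 2073 and 2922 in TGF-beta1, against 2289.7 and 1624 in low glucose. These groups overlapped too, and the intensity ratio was 1.28 within each pair. The difference was 0.32 (SE 0.070, limma adjusted p = 8.68e-05 with the block). Leaving out TGF-beta1 replicate 1 or 2 gave 0.53 or 0.12, and leaving out low glucose replicate 1 or 2 gave 0.52 or 0.12. The 3 probe sets of Actn1 above the filter gave 0.16 to 0.32, the tested one being the highest. Des, desmin, the intermediate filament of muscle and of mesangial cells, read 121 and 147 in TGF-beta1, against 167 and 123 in low glucose, with overlapping intensities and a difference of -0.099 (adjusted p = 0.31). Palld, the stress fibre scaffold palladin, had a difference of 0.13, which was 0.26 within pair 1 and 0.0081 within pair 2. Fscn1, fascin, which bundles filaments in cell protrusions, had a difference of 0.056.

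Among the LIM domain proteins, adaptors that gather on stress fibres and Z-discs, 4 of 8 were called higher, and 3 of these had the largest differences after Tnnt2 and Tagln. Fhl2, which carries CArG boxes before both of its annotated starts, read 690.5 and 739.8 in TGF-beta1, against 460.1 and 461 in low glucose. The arrays within each group were close together and the groups were well apart. The intensity ratio was 1.61 within pair 1 and 1.5 within pair 2. On the log2 scale the level was 9.58 ± 0.040 in TGF-beta1 and 8.98 ± 0.020 in low glucose (SD, n = 2 each). The difference of 0.59 had a limma adjusted p of 1.56e-11 with the block (SE 0.081) and an unadjusted p of 0.011 without it. Unlike most members, Fhl2 hardly differed between the pairs (0.015), and leaving out any 1 array gave 0.56 to 0.62.

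Pdlim7, enigma, a PDZ and LIM protein that binds tropomyosin, read 721 and 838 in TGF-beta1, against 574 and 443 in low glucose. Its groups did not overlap, and the difference was 0.59 (SE 0.082, limma adjusted p = 4.97e-11 with the block). All 3 of its probe sets gave nearly this value, 0.52 to 0.59. Pdlim1, a relative that binds alpha-actinin, read 843 and 1035 in TGF-beta1, against 724 and 561 in low glucose. The groups were again apart, and the difference was 0.53 (SE 0.083, adjusted p = 8.20e-09), but a further probe set above the filter gave 0.066.

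Csrp1, a cysteine-rich LIM protein of smooth muscle, read 1772 and 2365 in TGF-beta1, against 2156 and 1403 in low glucose. The groups overlapped, and the difference was 0.22 (limma adjusted p = 0.018 with the block), 0.13 within pair 1 and 0.31 within pair 2. Leaving out TGF-beta1 replicate 1 or 2 gave 0.40 or 0.043, and leaving out low glucose replicate 1 or 2 gave 0.49 or -0.049. Csrp2, its relative, had a difference of 0.20 (adjusted p = 0.068). For some paralogues of members with large differences the tested probe set gave a value near 0: -0.032 for Fhl1, 0.026 for Fhl3 and -0.017 for Pdlim5. Fhl1 was dim, at percentile 52.7 of brightness. Pdlim5 was read by 7 probe sets, from -0.017 to 0.32. The tested one, the brightest, gave the lowest value and all others were above 0, so Pdlim5 cannot be called unchanged.

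The transcription factor of the programme and its cofactor were not called. Srf read 451 and 665 in TGF-beta1, against 633 and 369.8 in low glucose. The groups overlapped and followed the pairs, and the difference of 0.16 was 0.059 within pair 1 and 0.25 within pair 2 (limma adjusted p = 0.17 with the block). Mkl1, the cofactor released from monomeric actin, read 216 and 279 in TGF-beta1, against 297 and 209.7 in low glucose, overlapping, with a difference of -0.019. Smtn, smoothelin, a stress fibre protein of contractile smooth muscle, had a difference of 0.10, and Lmod1, leiomodin, the filament nucleator of smooth muscle, was below the filter with 53.4 and 65.7 in TGF-beta1 and 63.5 and 50.3 in low glucose.

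Of the 8 genes that turn actin over, Tmsb4x alone was called. It encodes thymosin beta 4, the main peptide that binds actin monomers, and read 1912 and 2159.6 in TGF-beta1, against 1629 and 1552 in low glucose. The groups were apart, with little difference between the pairs (0.043), and the intensity ratio was 1.33 within pair 1 and 1.23 within pair 2. The difference of 0.33 had a limma adjusted p of 0.00011 with the block (SE 0.074) and an unadjusted p of 0.038 without it. Tmsb10, a thymosin of the same family and the brightest of all genes tested, had a difference of 0.045. Profilin (Pfn1, 0.058), which loads monomers on growing filaments, and the filament-severing cofilins (Cfl1, 0.083, and Cfl2, -0.065) were not past the threshold.

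Cap1, a cyclase-associated protein that recycles actin monomers, had the widest gap between the pairs of all members tested. It read 241 and 105 in TGF-beta1, against 94.9 and 252.3 in low glucose, the pair 2 arrays being brighter by 1.14 on the log2 scale, while the difference between the groups was 0.0056. The capping protein Capg had a difference of 0.0090. Gsn, gelsolin, which severs and caps filaments, had the lowest value of all members tested, -0.11 (limma adjusted p = 0.22 with the block), and was below 0 in both pairs.

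**Figure D3:**
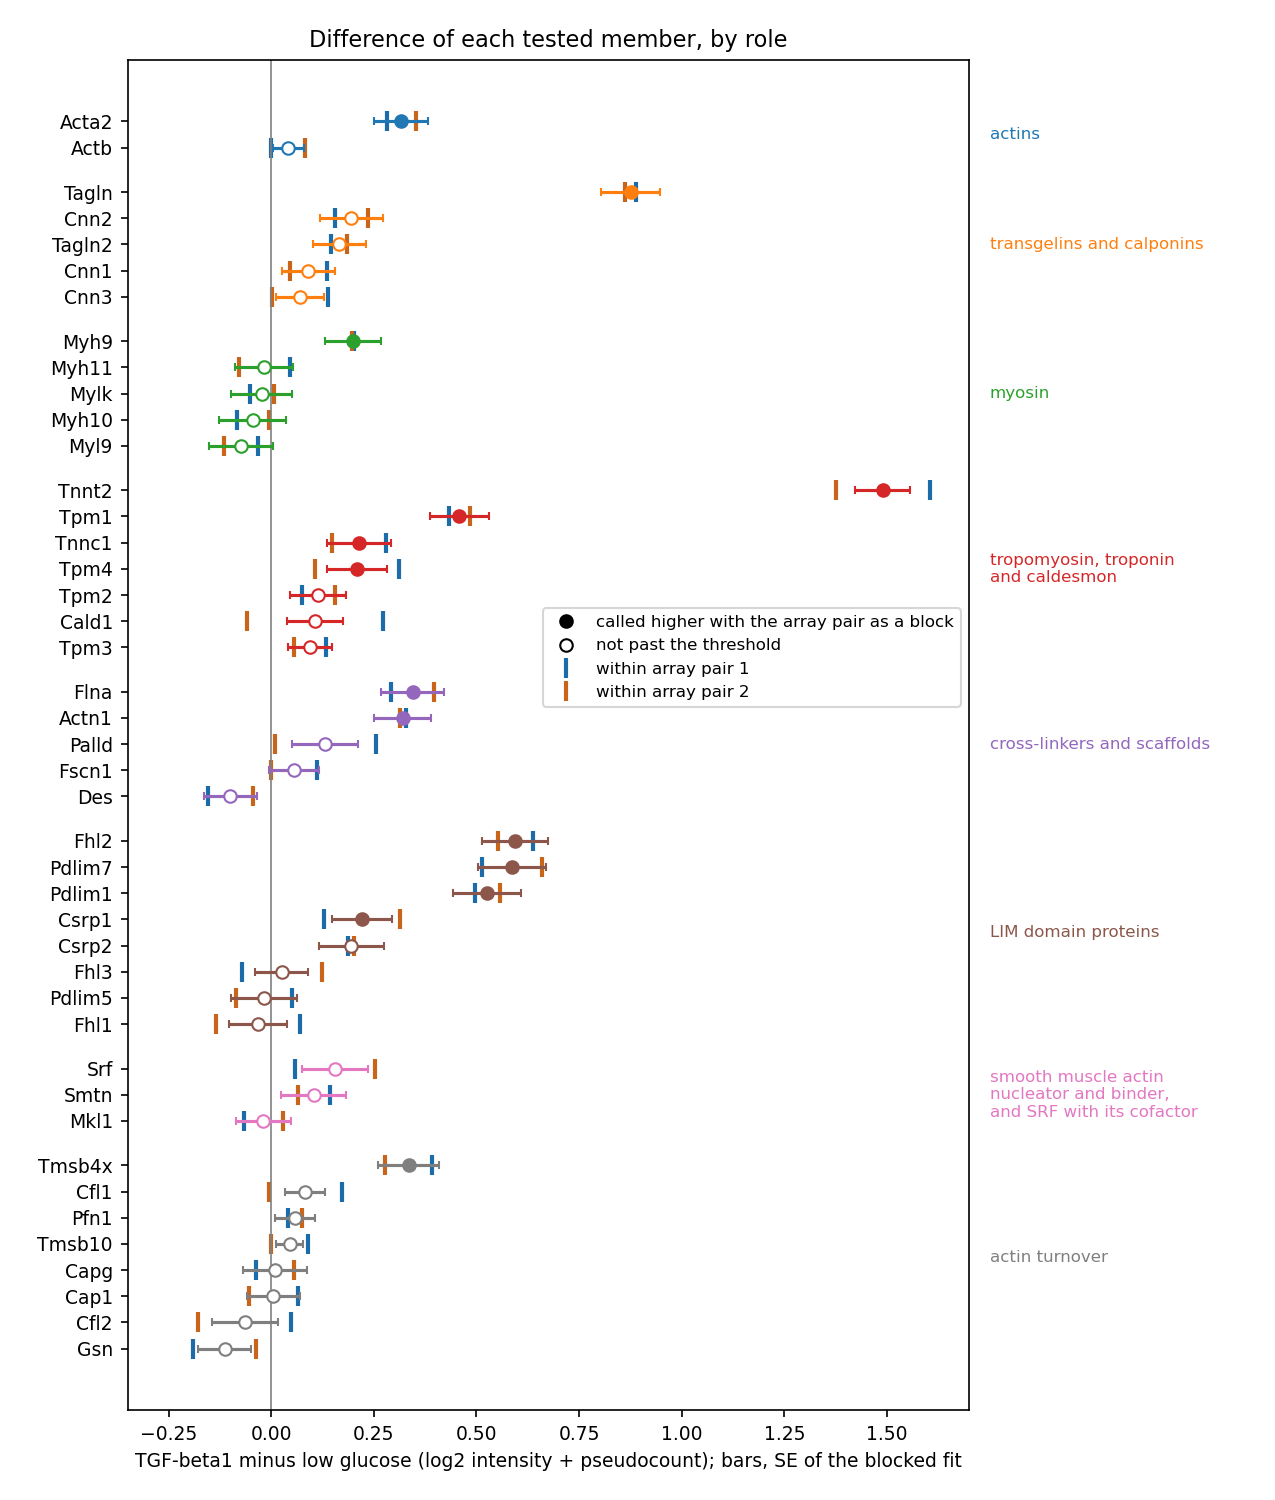
Difference of each of the 43 tested members, TGF-beta1 minus low glucose, on the log2(intensity + pseudocount) scale, by role. Circles are the difference with the SE of the blocked limma fit, filled where called higher, and vertical ticks are the values within array pairs 1 and 2. All 14 filled circles lie above 0, from 0.20 (Myh9) to 1.49 (Tnnt2), and the 29 open ones lie between -0.11 and 0.20.

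Probe sets of the same gene were compared within the arrays. They read the same RNA, so their likeness bears on the probes and does not replicate the difference between the groups. In 25 members more than 1 probe set was above the filter, and in 21 of these all gave a difference of the same sign. The share over all genes was not computed, and the 21 include members near 0, such as Actb (0.042 to 0.067). Their differences between TGF-beta1 and low glucose spanned a median of 0.12 on the log2 scale, whereas their differences between the array pairs spanned a median of 0.64, wider in 20 of the 25. Fscn1 was an example: its 4 probe sets gave 0.056 to 0.16 between the groups and -0.32 to 1.15 between the pairs. Myh9 gave 0.11 to 0.33 between the groups over 5 probe sets, and -0.64 to 0.41 between the pairs.

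**Figure D4:**
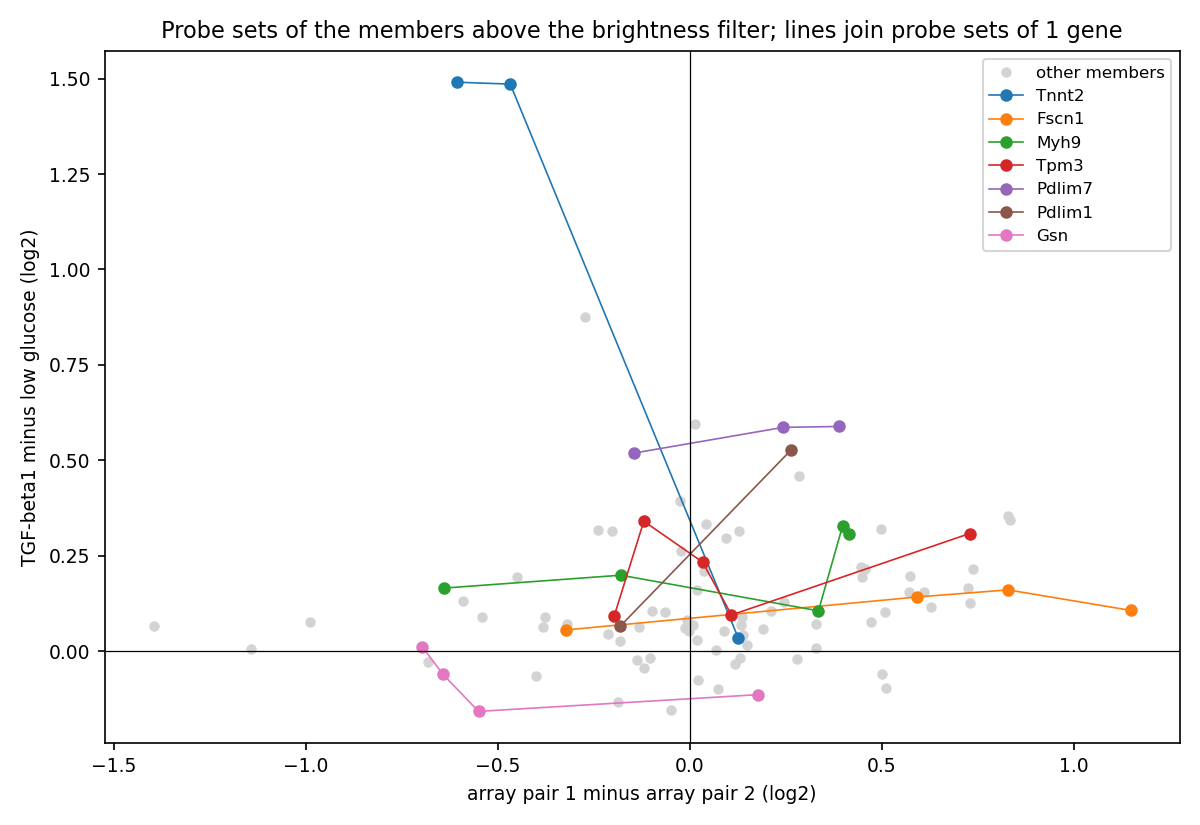
Every probe set of the members above the brightness filter, with the difference between array pairs (pair 1 minus pair 2, log2) on the horizontal axis and the difference between the groups (TGF-beta1 minus low glucose, log2) on the vertical axis. Lines join the probe sets of 7 named genes. Those of Fscn1, Myh9 and Gsn are spread along the horizontal axis more than along the vertical one, and Tnnt2 and Pdlim1 each have 1 probe set well below the rest of the gene's probe sets.

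Genes of the surrounding pathway were counted in the same fits, from lists written with earlier results known. Of 21 other genes of actin, focal adhesions and Srf targets tested (26 listed), 6 were called higher and 1 lower with the block, with a median of 0.049. Those with the largest differences were Zyx (0.55), the zyxin of focal adhesions, Tgfb1i1 (0.39), a LIM adaptor also known as Hic-5, and Filip1l (0.37), a filamin-interacting protein. Ablim1, an actin-binding LIM protein, was the one called lower (-0.28). Of 6 Srf cofactors and smooth muscle regulators tested (8 listed), 1, the forkhead factor Foxf1 (0.19), was called higher, with a median of 0.052. These shares stand beside 7.88% higher and 10.6% lower over all genes.

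The label of the cells was set against marker genes. Of 11 mesangial and pericyte markers, 9 had a probe set and 7 lay above the filter. Their summed intensity was 750.3 and 914 in TGF-beta1, against 888 and 670.3 in low glucose. Besides Acta2 and Des, the receptor Pdgfrb and the integrin Itga8 were above the filter, and Thy1 and Gata3 were below it. Pdgfrb and Itga8 read 65.2 to 118 over all arrays, Itga8 lying close above the filter. The striated muscle markers Myod1 and Ttn read 75.8 to 101, so such values do not show that a gene was expressed. Brightness percentiles were 53.4 for Pdgfrb, 61.9 for Acta2 and 63.9 for Des. Of the 7 above the filter, Acta2 was called higher and Rgs5, a pericyte gene, lower (-0.23). Rgs5 read 46.7 and 84.9 in TGF-beta1, against 133 and 46.5 in low glucose, so that the groups overlapped, and its difference was -0.45 within pair 1 and -0.013 within pair 2. Of the tubular epithelial markers, 5 of 7 were above the filter. Their summed intensity, which is set side by side between arrays and not between lists, was 4003 and 4113 in TGF-beta1, against 5796 and 4942 in low glucose, most of it from Cdh16 and Aqp1. All 5 tested were lower on both TGF-beta1 arrays than on both low glucose arrays in normalised value. Their brightness percentiles were 97.2 for Cdh16, 96.7 for Aqp1, 90.8 for Pax8, 84.9 for Lrp2 and 48.9 for Umod. Aqp1, a water channel of the proximal tubule, was called lower (-0.67, limma adjusted p = 1.21e-16 with the block), as were Cdh16 (-0.31) and Lrp2 (-0.29), while Cdh1 and Slc34a1 lay below the filter. Summed markers of podocytes (3 of 5 with a probe set above the filter, 579 and 850.2 in TGF-beta1, against 811 and 617 in low glucose) and of the endothelium (2 of 6, 295 and 407 in TGF-beta1, against 387 and 315 in low glucose) were highest in pair 1. Among them Podxl was called higher (0.23) and Synpo, an actin-associated podocyte protein, lower (-0.58). Leukocyte and macrophage markers (5 of 6) summed to 1721 and 1864 in TGF-beta1, against 2219 and 2038 in low glucose, with Csf1r called lower (-0.38). Csf1r stood at percentile 95.5 of brightness and Cd14 at 82.9, while Adgre1, Cd68 and Itgam stood at 44.1 to 51.5. The part of these cell type markers in the differences of the contractile genes was not tested. Whether the RNA came from mesangial cells alone was not tested either.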

How the data were processed

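The authors deposited 1 linear intensity per probe set and array for 45101 probe sets on 4 arrays of total RNA. The sources used here do not give how the probes were summarised and scaled. Gene names came from the platform annotation. The 64 control probe sets, the 9160 without a symbol and the 932 with several named no gene. From the deposited intensities, log2(intensity + 46.9, the 25th percentile of all values) was computed and quantile normalised, since the array medians differed by 0.23 on the log2 scale. A fold on this scale understates the change of dim genes. Probe sets under the 40th percentile of mean log2 were dropped, and the brightest probe set of each gene was tested with limma 3.58.1 in R 4.3.3 (lmFit, eBayes with trend, two-sided, Benjamini-Hochberg over 13565 genes, threshold 0.05), without and with the array pair as a fixed block. The block leaves each difference as it is and brought the median SE to 0.072, against 0.18 without it. Both fits were also run on simulated data, whose outcome is not reported here and is not used as support. Figures used matplotlib 3.10.9 (Python 3.11.15). Actg2 and Lmod1 fell under the filter.

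The members, the other lists, the pair and the alternatives were chosen with earlier results of these data known. Every member is named; 4-array values are given for members called in either fit, with an absolute difference of at least 0.3, or fixed by name as field markers. From each pathway list the 3 called genes with the largest absolute difference are named, and those called lower, like the cell type markers given by name, were added after their values were seen. Alternatives were other pseudocounts, scalings, filters, probe set types, priors, no trend, each pair alone and leaving out each array. A further pathway list is not reported here.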

Additional observations from a re-analysis of the deposited data

How the results depend on the processing

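Without the block, the smallest adjusted p of any gene was 1.0, so the 0 members called there, also with other pseudocounts (16 and 100), a floor, other scalings, filters and probe set types and no trend, say nothing about stability. The count was 2 with an infinite prior and 14 with the replicate block of the array pair, and 0 to 1 when 1 array was left out, the 1 being Tnnt2 without low glucose replicate 2 (difference 1.82, limma adjusted p = 0.010). With the block, 10 to 16 members were called higher and 0 lower, beside 5.55% to 10.1% of all genes called higher. The exception was the prior degrees of freedom estimated without the block, which left 0 higher, among members and all genes alike. That setting has 2.80 prior degrees of freedom beside the 1 residual one, where the blocked fit estimated an infinite prior. Each p was then judged on few degrees of freedom. The 10 came without suffixed probe sets, where fewer members (35) were tested, and the 16 with a filter at the 60th percentile or without the trend. The median difference of the members was 0.085 to 0.11 under these settings and 0.045 to 0.14 with any single array omitted.

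Such omissions also unbalance the pairs. The difference then turned to -0.18 for Tnnc1 and -0.041 for Flna without TGF-beta1 replicate 2, and to -0.12 for Tnnc1, -0.10 for Flna and -0.049 for Csrp1 without low glucose replicate 2. Over the 4 omissions it spanned -0.18 to 0.62 for Tnnc1, -0.10 to 0.78 for Flna and -0.049 to 0.49 for Csrp1. Beside that prior, the calls of Myh9 and Tnnc1 were lost under median centring, and those of Myh9 and Tnnt2 without suffixed probe sets. Tnnt2 was then read through its dim probe set. Tagln2, Cnn2, Csrp2 and Tpm3 gained a call under 1 or 2 settings each. Signal over background limits Actg2, Lmod1, Myl9, Myh11 and Fhl1. With 1 residual degree of freedom, the blocked fit does not estimate each gene's own spread.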
